A study of Mus musculus with 12 samples.

Results

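The nuclear genes of oxidative phosphorylation were followed across the 3 sorted CD8 T cell populations of a study of autoimmune diabetes in non-obese diabetic (NOD) mice. The members were taken by name: every gene symbol that began with Nduf, Uqcr, Sdh or Atp5, together with Cox4 to Cox8, with pseudogenes left out. This gave 97 of the 32285 genes counted. By the complex in which their products work, 36 belonged to complex I, 4 to complex II, 8 to complex III, 20 to complex IV and 17 to complex V, and 12 encoded assembly factors of complexes I and II.

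CD8 T cells were profiled by 5′ single-cell RNA-seq in 2 independent rounds, each from prediabetic female NOD/ShiLtJ mice 10 to 15 weeks old. Each round pooled the organs of 10 mice, so that a library stood for a pool and not for an animal. Every group was sorted as CD45.1+ CD8+ cells that lacked CD4, B220 and CD11b. The islet tetramer-positive cells bound a tetramer loaded with NRP-V7, a mimic of a peptide of the islet protein IGRP, the islet tetramer-negative cells did not, and the spleen tetramer-positive cells bound it and came from spleen after magnetic depletion of other cells and, per the study, a gate on CD44. No treatment and no non-diabetic strain was part of the design, and each group had 2 libraries.

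Oxidative phosphorylation is the work of the inner mitochondrial membrane. Complexes I and II take electrons from NADH and succinate, complex III passes them to cytochrome c, complex IV hands them to oxygen, and complex V, the ATP synthase, makes ATP from the proton gradient that results. Most subunits are encoded in the nucleus and imported, while a few at the core of complexes I, III, IV and V are encoded by mitochondrial DNA (symbols that begin with mt-), so both genomes supply each of those complexes, and complex II is wholly nuclear. In T cells, demand on this machinery changes as naive cells become activated, divide and settle into effector, memory or exhausted states.

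A UMI marks 1 captured RNA molecule. Cells with under 5% of UMIs from mt- genes and 200 to 3500 detected genes (islets) or 200 to 2000 (spleen) were kept, which left 1204 to 8932 cells and 5880696 to 40469961 UMIs per library. The 6 CD8 T cell markers (Cd3d, Cd3e, Cd3g, Cd8a, Cd8b1 and Trac) were detected in every library, with 4198 to 5884 summed UMIs per 1000000 UMIs of the library (CPM). All 12 markers of exocrine pancreas were found in the islet libraries, at 63.3 to 486 summed CPM, and 10 of the 12 were at 0 in each spleen library. Markers of islet endocrine cells summed to 137 CPM in the tetramer-negative library of round 1 and to at most 13.9 in the others. Those of B cells summed to 15.3 to 75.5 and those of myeloid cells to 15.2 to 30.9 CPM. Libraries shared 2 to 64 cell barcodes pairwise, at most 1.03% of the smaller library. The rounds were sequenced with different read lengths, and values of a gene are read within a round first.

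The share of RNA from these genes was highest in the islet tetramer-positive cells. The 97 genes held 2.91% and 2.51% of all UMIs in the islet tetramer-positive libraries of rounds 1 and 2, 2.13% and 1.94% in the islet tetramer-negative libraries, and 2.08% and 2.01% in the spleen tetramer-positive libraries. Both islet tetramer-positive libraries lay above the other four, and the spleen and tetramer-negative libraries overlapped. The difference from tetramer-negative cells was 0.777 percentage points in round 1 and 0.571 in round 2 (mean 0.674 ± 0.146, SD of the 2 rounds), and the spleen cells were below the islet tetramer-positive cells by differences of -0.830 and -0.500 points. With 2 libraries a group no exact permutation test of a single value can pass 0.05, and no p is given for these shares. Per cell, the median number of UMIs from the 97 genes was 95 and 92 in islet tetramer-positive cells, 69 and 66 in tetramer-negative cells, and 54 and 56 in the spleen. These counts were not scaled to depth, which was lower in the spleen (median 2590 and 2765 UMIs per cell) than in the islet libraries (3793 to 4217). As a share of each cell's UMIs, the median cell had 2.60% and 2.22% in islet tetramer-positive, 1.89% and 1.74% in tetramer-negative and 2.07% and 2.00% in spleen libraries.

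The 13 genes of the mitochondrial genome went the other way. They held 1.96% and 1.26% of UMIs in the islet tetramer-positive libraries of rounds 1 and 2, 2.87% and 1.85% in the tetramer-negative libraries, and 2.39% and 1.48% in the spleen libraries. In each round the islet tetramer-positive library was lowest and the tetramer-negative library highest. Across rounds the groups overlapped, since every library of round 1 was above every library of round 2. The ratio of nuclear to mt- UMIs was 1.49 and 2.00 in islet tetramer-positive cells, 0.744 and 1.05 in tetramer-negative cells, and 0.870 and 1.36 in spleen cells. The limit of 5% on mt- UMIs removed 8.08% and 4.42% of tetramer-negative, 8.23% and 7.09% of islet tetramer-positive and 2.37% and 2.66% of spleen cells. Without it the mt- shares were 2.12% and 1.38%, 3.09% and 1.95%, and 2.45% and 1.53% for islet tetramer-positive, tetramer-negative and spleen cells, in the same order within each round.

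**Figure D1:**
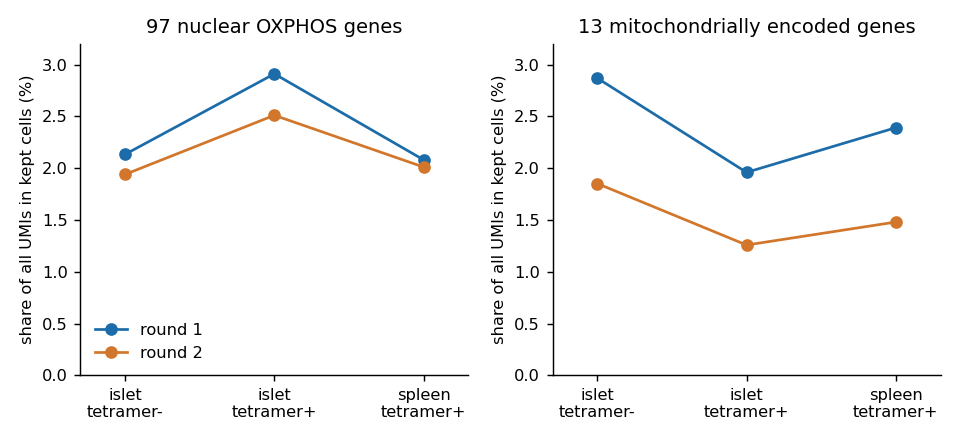
Share of all UMIs in kept cells (%) held by the 97 nuclear genes (left) and by the 13 mitochondrially encoded genes (right), 1 point per library, with lines joining the libraries of a round. The nuclear share peaked in islet tetramer-positive cells in both rounds (2.91% and 2.51%), where the mt- share was lowest (1.96% and 1.26%).

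Each gene was then tested between groups on the summed UMIs of each library. Of the 97 members, 91 passed the filter on low counts. The other 6 were isoforms of complex IV: Cox4i2, Cox7b2, Cox8b and Cox8c had no UMI in any library, Ndufa4l2 had 1, and Cox6a2 had 39 UMIs in the tetramer-negative library of round 2 and at most 1 in any other. The genes without a UMI are forms best known from heart and skeletal muscle, lung, or testis. Where a library had no UMI for a gene, 3 counts of its total set the limit, which was 0.0741 to 0.510 CPM.

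In islet tetramer-positive against tetramer-negative cells, the question was whether cells that recognise the islet peptide differ from their neighbours in the same tissue. Without a term for the round, no member passed an adjusted p of 0.05 in edgeR in either direction (background 0.151% of all genes called higher and 1.04% lower). At an unadjusted p under 0.05 in edgeR, 17 were higher and 0 lower, beside 835 and 1147 of all 11277 genes tested. DESeq2 called 2 higher, Ndufs4 and Ndufs8, and its share over all genes is not given. The 2 rounds were separate pools of mice that each gave all 3 groups, and with the round as a block 54 of 91 members (59.3%) were called higher and 2 lower (background 14.4% higher and 16.1% lower). The edgeR calls in this comparison therefore hold only with that block. Fewer members were called higher when the tetramer-negative or the islet tetramer-positive library of round 1 was left out. Such fits leave 1 library in a group, and their share over all genes is not given. The median member was higher by 0.41 on the log2 scale in both fits, and the median over all 11277 genes was -0.02 with the block. Within each round separately, 78 of 91 members were higher in both rounds and 2 were lower in both (background 36.2% and 39.7%), with median log2 differences of 0.51 in round 1 and 0.29 in round 2.

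By complex, with the round as a block, 23 of 36 members of complex I rose, 3 of 4 of complex II, 3 of 8 of complex III, 10 of 14 tested of complex IV and 12 of 17 of complex V. Of the 12 assembly factors 3 (25%) were called higher and 1 lower. Median log2 changes were 0.40, 0.44, 0.28, 0.53, 0.45 and 0.31 in that order. Of the 7 core subunits of complex I, which carry the flavin and the iron-sulphur clusters, 3 rose, and of the 29 other subunits 20 rose. The median over all 7 was 0.30 and over all 29 was 0.42, and the difference between these lists was not tested. The summed level of complex V, the largest of the 5, was 10215 and 9010 CPM in islet tetramer-positive cells of rounds 1 and 2, 7418 and 6826 in tetramer-negative cells and 7190 and 6894 in the spleen.

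**Figure D2:**
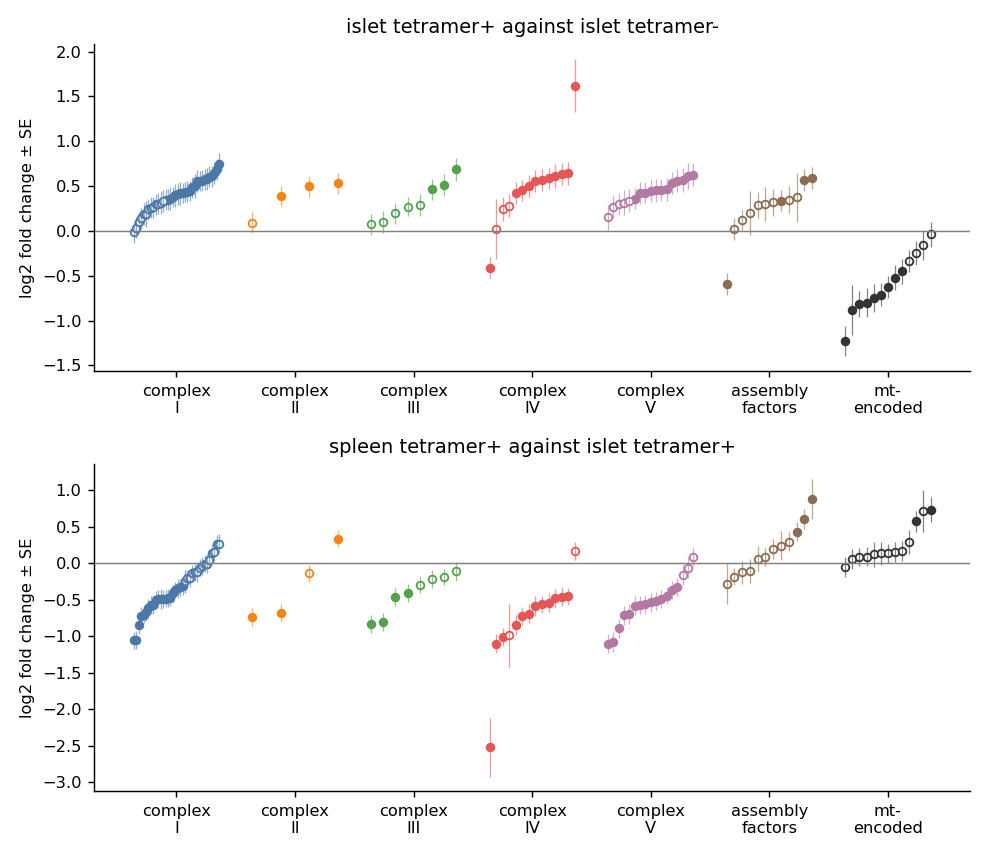
Log2 fold change ± SE of each tested member and each mt- gene with the round as a block, grouped by complex and ordered by size within a group. Filled points passed an adjusted p of 0.05 and open points did not. In the upper panel 54 nuclear members lie filled above 0 and 9 mt- genes filled below it, and in the lower panel 53 nuclear members lie filled below 0.

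Ndufs5, an accessory subunit of complex I (chr4:123712710-123718202, minus strand, here and below in GRCm38, GENCODE M21), changed most between the islet groups with the block, among the members with 20 or more CPM. It had 94.6 and 76.6 CPM in the tetramer-negative libraries, 163 and 125 in the islet tetramer-positive libraries and 106 and 112 in the spleen libraries of rounds 1 and 2. Both islet tetramer-positive libraries were above the other four. The change was 0.75 ± 0.12 (log2, SE; adjusted p = 0.000732 with the block and 0.228 without).

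Ndufc1 (chr3:51404677-51408988, minus strand) and Ndufb7 (chr8:83566671-83571626, plus strand) are further accessory subunits of complex I. Ndufc1 had 101 and 79.4 CPM in tetramer-negative, 162 and 129 in islet tetramer-positive and 108 and 112 in spleen cells. Ndufb7 had 161 and 163, 275 and 235, and 190 and 202 in the same order. For both genes the islet tetramer-positive libraries stood above all others, with changes of 0.68 ± 0.12 and 0.65 ± 0.12 (adjusted p = 0.00106 and 0.00179 with the block, 0.258 and 0.200 without). Ndufa13, the most abundant member of complex I (356 to 508 CPM over the 6 libraries), rose by 0.42 ± 0.12 (adjusted p = 0.0145 with the block, 0.347 without).

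Uqcr11, a small subunit of complex III (chr10:80402997-80406830, minus strand), had 118 and 87.3 CPM in tetramer-negative, 206 and 130 in islet tetramer-positive and 171 and 154 in spleen cells. The tetramer-negative libraries were lowest in each round, and the islet tetramer-positive and spleen libraries overlapped. Its change between the islet groups was 0.69 ± 0.13 (adjusted p = 0.00174 with the block, 0.352 without). Uqcrh, the hinge protein and the most abundant member of complex III, had 754 and 730 CPM in tetramer-negative and 806 and 785 in islet tetramer-positive cells, a change of 0.10 ± 0.12 that did not pass (adjusted p = 0.580 with the block, 0.854 without).

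In complex IV, Ndufa4 (chr6:11900292-11907497, minus strand), once counted with complex I and now placed in complex IV, had 420 and 381 CPM in tetramer-negative, 683 and 573 in islet tetramer-positive and 434 and 485 in spleen cells. The islet tetramer-positive libraries did not overlap the others, and the change was 0.64 ± 0.13 (adjusted p = 0.00254 with the block, 0.243 without). Cox8a, the most abundant member of the complex, had 965 and 915, 1430 and 1239, and 886 and 878 CPM in the same order, a change of 0.50 ± 0.13 (adjusted p = 0.0102 with the block, 0.353 without). Cox7a1, the heart and muscle form of subunit 7a, was named after its values were seen because its fold change was the largest of all members, at 1.62 ± 0.30 (adjusted p = 0.00152 with the block, 0.251 without). It was rare, at 2.13 and 0.988 CPM in tetramer-negative, 5.44 and 3.76 in islet tetramer-positive and 1.14 and 0.579 in spleen cells, while Cox7a2, its widely expressed counterpart, stood at 296 to 609 over the 6 libraries.

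Complex V was led by Atp5e, the epsilon subunit, with 990 and 708 CPM in tetramer-negative, 1396 and 1098 in islet tetramer-positive and 992 and 897 in spleen cells (0.56 ± 0.13, adjusted p = 0.00510 with the block, 0.427 without). Atp5g1, Atp5g2 and Atp5g3 encode the same mature c subunit, the proton-carrying ring of the synthase, behind different import sequences. Atp5g3 rose by 0.56 ± 0.13 and Atp5g1 by 0.47 ± 0.13 (adjusted p = 0.00681 and 0.0161 with the block, 0.307 and 0.405 without), and Atp5g2 differed by 0.34 ± 0.13 without passing (adjusted p = 0.0619 with the block, 0.667 without). Of the UMIs of these 3 genes, Atp5g1 held 16.97% and 17.7% in tetramer-negative, 17.3% and 17.5% in islet tetramer-positive and 19.1% and 20.8% in spleen cells. Atp5g3 held 38.0% and 44.3%, 41.6% and 47.0%, and 32.8% and 38.0% in the same order, so that within each round it was lowest in the spleen.

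Complex II, succinate dehydrogenase, links the tricarboxylic acid cycle to the respiratory chain. After TMM scaling, all 4 of its subunits were higher in islet tetramer-positive than tetramer-negative cells within both rounds, 3 of them called with the block. Sdhb, its iron-sulphur subunit and most abundant member, had 133 and 127 CPM in tetramer-negative, 209 and 169 in islet tetramer-positive and 134 and 116 in spleen cells, and rose by 0.53 ± 0.12 between the islet groups (adjusted p = 0.00550 with the block, 0.332 without). The membrane anchors Sdhc and Sdhd rose by 0.50 ± 0.12 and 0.39 ± 0.12 (adjusted p = 0.00647 and 0.0214 with the block, 0.170 and 0.254 without). Sdha, the flavoprotein that oxidises succinate (chr13:74322254-74350280, minus strand), had 70.4 and 96.1 CPM in tetramer-negative, 68.9 and 111 in islet tetramer-positive and 99.2 and 141 in spleen cells. In round 1 its CPM was slightly lower in islet tetramer-positive than tetramer-negative cells, and the difference turned positive only with the TMM scaling. The islet groups overlapped for Sdha, with a difference of 0.09 ± 0.11 (adjusted p = 0.567 with the block, 0.852 without).

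The 2 members called lower in islet tetramer-positive cells were Sdhaf1 and Cox7a2l. Sdhaf1 (chr7:30321406-30323895, minus strand), an assembly factor that serves the iron-sulphur subunit of complex II, had 30.0 and 24.5 CPM in tetramer-negative, 20.1 and 16.3 in islet tetramer-positive and 32.4 and 26.6 in spleen cells. Its islet tetramer-positive libraries were below the other four, and it fell by 0.59 ± 0.13 on the log2 scale (adjusted p = 0.00378 with the block, 0.352 without). Cox7a2l (chr17:83501918-83517330, minus strand), a factor that joins complexes III and IV into supercomplexes, had 371 and 240 CPM in tetramer-negative, 271 and 186 in islet tetramer-positive and 300 and 243 in spleen cells. It was lower in each round with the groups overlapping across rounds, and fell by 0.41 ± 0.12 (adjusted p = 0.0179 with the block, 0.617 without). Leaving out 1 library at a time with the block left 0 to 2 of these 2 calls, with 0 when the tetramer-negative library of round 2 was left out.

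**Figure D3:**
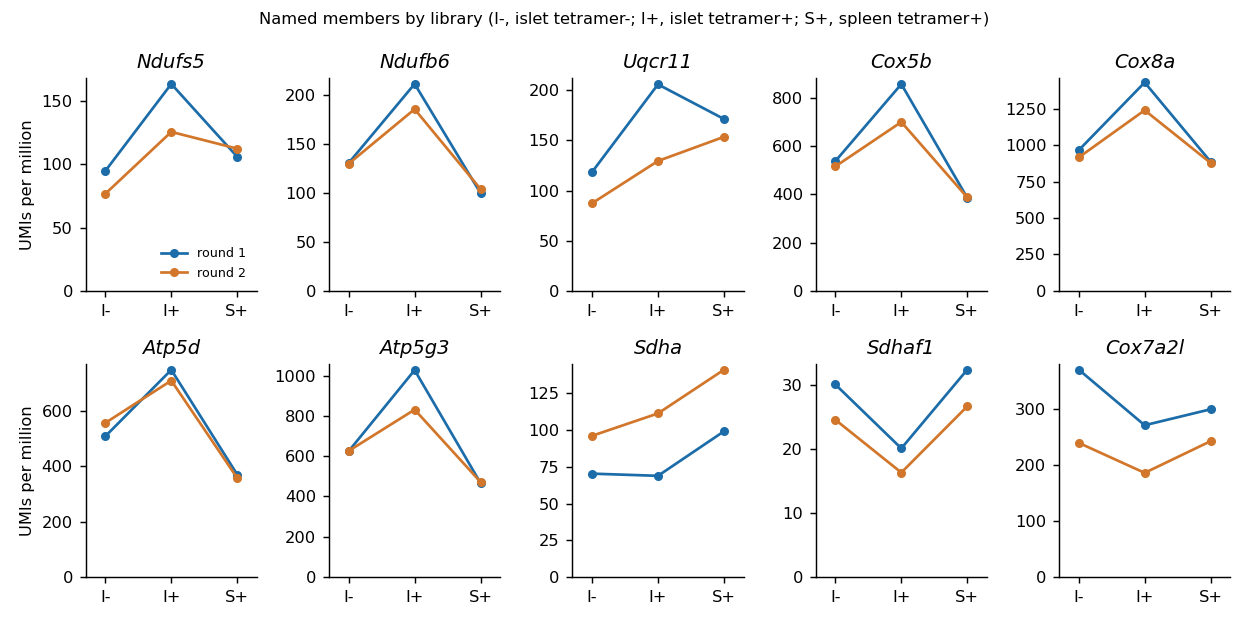
CPM of 10 named members in each library (islet tetramer-negative, islet tetramer-positive and spleen tetramer-positive, lines joining the libraries of a round; every axis starts at 0). Ndufs5, Ndufb6, Cox5b, Cox8a, Atp5d and Atp5g3 are highest in islet tetramer-positive cells in both rounds, Sdha in the spleen, and Sdhaf1 and Cox7a2l are lowest in islet tetramer-positive cells.

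The mt- genes, measured in the same libraries, had 0 of 13 called without a term for the round (1 lower at an unadjusted p under 0.05) and 9 (69.2%) lower and 0 higher with the block (background 16.1% lower and 14.4% higher), at a median log2 change of -0.63. mt-Co1, the catalytic subunit of complex IV, had 5004 and 3982 CPM in tetramer-negative, 3429.9 and 3109 in islet tetramer-positive and 4363 and 3449 in spleen cells (-0.45 ± 0.14, adjusted p = 0.0244 with the block, 0.518 without). mt-Cytb, the cytochrome b of complex III, changed by -0.75 ± 0.16 and mt-Nd1 of complex I by -0.63 ± 0.13 (adjusted p = 0.00327 and 0.00252 with the block, 0.583 and 0.646 without). mt-Atp6 of complex V had 4838 and 1009 CPM in tetramer-negative and 4081 and 855 in islet tetramer-positive cells, and its change of -0.25 ± 0.14 did not pass (adjusted p = 0.188 with the block, 0.947 without). Its level differed far more between rounds than between groups, and mt-Nd3 went from 688 to 28.7 CPM between the tetramer-negative libraries of rounds 1 and 2. The part of read length in these differences was not tested.

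In spleen against islet tetramer-positive cells, the question was how cells with the same specificity differ between the lymphoid organ and the target tissue. Without a term for the round, 12 of 91 members were called lower and 0 higher in the spleen (background 13.7% lower and 12.9% higher). At an unadjusted p under 0.05 in edgeR, 26 were lower and 0 higher, beside 2325 and 2321 of all 11277 genes tested. DESeq2 called 23 lower, and its share over all genes is not given. With the round as a block, 53 (58.2%) were called lower and 4 higher (background 28.0% lower and 27.1% higher). The share called lower in edgeR was thus close to the background without the block and above it with the block. Fewer members were called lower with the block when the spleen library of round 1 was left out, a fit whose share over all genes is not given. Within each round separately, 65 members were lower in both rounds and 13 higher in both (background 40.1% and 43.7%). The median member stood at -0.44 and the median over all genes at 0.04 with the block. This comparison shares the islet tetramer-positive libraries with the one above.

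The 12 were Ndufa11, Ndufb6, Ndufb8 and Ndufs8 of complex I, Sdhd of complex II, Cox5a, Cox5b, Cox7a1 and Cox7a2 of complex IV, and Atp5d, Atp5g3 and Atp5o of complex V. None was of complex III, and the split by complex was not tested. As a share, the 12 were 13.2% of the members tested, near the 13.7% of all genes tested. Without the islet tetramer-positive library of round 1 the count was 1, and without the spleen library of round 1 or of round 2 it was 0.

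Cox5b (chr1:36691449-36693681, plus strand), a zinc-binding subunit of complex IV, had 858 and 701 CPM in islet tetramer-positive, 386 and 388 in spleen and 538 and 516 in tetramer-negative cells. The 3 groups did not overlap. The difference was -1.10 ± 0.13 with the block (adjusted p = 1.15e-05) and passed without it (adjusted p = 0.0256). Atp5d (chr10:80138632-80145818, plus strand), the delta subunit of the catalytic head of complex V, had 748 and 709 CPM in islet tetramer-positive, 369 and 357 in spleen and 508 and 556 in tetramer-negative cells. These 3 groups did not overlap either, with a difference of -1.10 ± 0.13 (adjusted p = 1.14e-05 with the block, 0.0175 without).

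Atp5g3 (chr2:73908447-73911326, minus strand) had 1027 and 831 CPM in islet tetramer-positive, 465 and 471 in spleen and 625 and 626 in tetramer-negative cells (-1.08 ± 0.13, adjusted p = 1.94e-05 with the block, 0.0278 without). The other c subunit genes, Atp5g1 and Atp5g2, stood at -0.56 ± 0.13 and -0.54 ± 0.13 (adjusted p = 0.00264 and 0.00336 with the block, 0.177 and 0.355 without). Of the complex I subunits, Ndufb6 (chr4:40270591-40279421, minus strand) had 211 and 186, 99.7 and 104, and 131 and 130 CPM in the same order (-1.06 ± 0.12, adjusted p = 8.85e-06 with the block, 0.0153 without). Ndufb8 (chr19:44548572-44555440, minus strand), an accessory subunit like Ndufb6, had 287 and 241, 135 and 138, and 181 and 176 (-1.05 ± 0.12, adjusted p = 1.15e-05 with the block, 0.0202 without). For Atp5g3, Ndufb6 and Ndufb8 the islet tetramer-positive libraries were highest and the spleen libraries lowest, without overlap.

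By complex, with the block, 21 of 36 members of complex I were lower in the spleen, 2 of 4 of complex II, 4 of 8 of complex III, 12 of 14 tested of complex IV and 14 of 17 of complex V, and 0 of 12 assembly factors. Median log2 differences were -0.36, -0.41, -0.35, -0.64, -0.54 and 0.14 in that order. The most abundant members of each complex were among those that fell, with Ndufa13 at -0.41 ± 0.12, Sdhb at -0.69 ± 0.12, Uqcrh at -0.47 ± 0.12, Cox8a at -0.69 ± 0.13 and Atp5e at -0.49 ± 0.13. With the block, the adjusted p of these 5 lay between 0.000392 and 0.00883, and without it between 0.0961 and 0.311.

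Only 4 members (4.40%) were called higher in the spleen with the block, below the background of 27.1%. They were Sdha and the complex II assembly factors Sdhaf1, Sdhaf3 and Sdhaf4, while the factor Sdhaf2 was not called. Sdhaf1 stood at 0.61 ± 0.14, Sdhaf4 at 0.43 ± 0.13 and Sdha at 0.33 ± 0.12 (adjusted p = 0.00201, 0.0114 and 0.0249 with the block, 0.177, 0.286 and 0.313 without). Sdhaf3, named after its values were seen, was rare at 2.99 to 8.33 CPM and stood at 0.88 ± 0.28 (adjusted p = 0.0160 with the block, 0.158 without). Sdhaf4 (chr1:23995939-24005656, minus strand), which assists the flavoprotein Sdha, had 30.9 and 24.6 CPM in islet tetramer-positive, 40.8 and 38.8 in spleen and 20.4 and 17.0 in tetramer-negative cells. Of the other subunits of complex II, Sdhb and Sdhd fell, with Sdhd at -0.73 ± 0.12 (adjusted p = 0.000199 with the block, 0.0188 without), and Sdhc at -0.14 ± 0.12 did not pass (adjusted p = 0.350 with the block, 0.497 without). Of the 4 calls, 1 was left without the spleen library of round 2 and 2 without the islet tetramer-positive library of round 2.

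The mt- genes had 0 of 13 called in this comparison without a term for the round (1 higher at an unadjusted p under 0.05) and 2 higher with the block, mt-Atp8 at 0.57 ± 0.15 and mt-Nd6 at 0.73 ± 0.17 (adjusted p = 0.00499 and 0.00244 with the block, 0.737 and 0.116 without). These 2 were 15.4% of the 13, below the background of 27.1%. The 13 genes' median log2 difference was 0.14. mt-Co1, mt-Cytb, mt-Nd1 and mt-Atp6 lay between 0.05 and 0.15 and did not pass.

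The share of dividing cells also differed between the groups. The spleen had the lowest share of such cells, and the part of dividing cells in the differences of nuclear share was not tested. Cells with UMIs of 2 or more of 16 cell cycle genes made up 21.3% and 18.5% of islet tetramer-positive, 9.05% and 7.81% of tetramer-negative and 0.709% and 2.22% of spleen cells, and the 16 genes summed to 1025 and 580, 434 and 264, and 57.1 and 88.7 CPM. With those cells left out, the nuclear share was 2.61% and 2.31% in islet tetramer-positive, 1.98% and 1.83% in tetramer-negative and 2.08% and 2.01% in spleen cells of rounds 1 and 2. The islet tetramer-positive libraries were still the highest, and the spleen library was above the tetramer-negative library in each round. With the block and without cycling cells, 46 of 91 members were higher and 2 lower between the islet groups (background 12.5% and 13.1%), with a median of 0.34. In the spleen against islet tetramer-positive cells 41 were lower and 8 higher (background 25.6% and 25.2%), with a median of -0.25. Without a term for the round 6 were lower there: Ndufa11, Ndufb6, Ndufb8, Cox5b, Atp5d and Atp5g3. The share of all genes called in that fit is not given, so these 6 are not read against a background.

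Depth differed as well, with median UMIs per cell of 2590 and 2765 in the spleen and 3793 to 4217 in the islet libraries, and the upper limit on genes per cell differed between the tissues. With every cell thinned to 1000 UMIs, 35 of 89 members tested were higher and 1, Cox7a2l, lower between the islet groups with the block (background 8.62% and 8.37%), and 32 were lower and 4 higher in the spleen (background 21.5% and 18.9%). The thinned nuclear shares were 2.65% and 2.31% in islet tetramer-positive, 1.99% and 1.83% in tetramer-negative and 2.09% and 2.00% in spleen cells. Exocrine markers were higher in the tetramer-negative than in the islet tetramer-positive library of each round, and without cells with 3 or more exocrine UMIs the difference in nuclear share between the islet groups was 0.679 points, as large as with them.

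Marker genes of T cell states split the libraries further. A cell was placed by whether it had a UMI of Pdcd1, which encodes PD-1, of Tcf7, a factor of stem-like cells, or of Havcr2, which encodes TIM-3, with cycling cells set apart first. All shares here are after thinning to 1000 UMIs per cell, and those of fewer than 20 cells are left out. In tetramer-negative cells of rounds 1 and 2 the nuclear share was 2.79% and 2.47% in cycling cells, 2.31% and 2.12% in Havcr2+ Pdcd1+ cells and 2.02% and 1.85% in Tcf7+ Pdcd1+ cells. Of these 3 subsets, cycling cells thus had the highest share and Tcf7+ Pdcd1+ cells the lowest, in both rounds. Most cells of every library lay outside the 3 subsets. Cells that matched no marker combination made up 60.6% and 57.9% of kept tetramer-negative, 59.0% and 54.8% of islet tetramer-positive and 81.2% and 81.7% of spleen cells.

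In islet tetramer-positive cells, the order of the 3 subsets was the same, with 3.34% and 2.86% in cycling, 2.71% and 2.43% in Havcr2+ Pdcd1+ and 2.33% and 2.12% in Tcf7+ Pdcd1+ cells. Each of these was above the tetramer-negative value of the same subset and round. In the spleen, Tcf7+ Pdcd1+ cells had 2.09% and 2.09%, and cycling cells, of which there were 25 and 53 after thinning, 2.50% and 2.08%. Cells share a library and are no replicates, so these shares are given without a test, and a subset set by single UMIs holds cells in which the marker was missed.

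**Figure D4:**
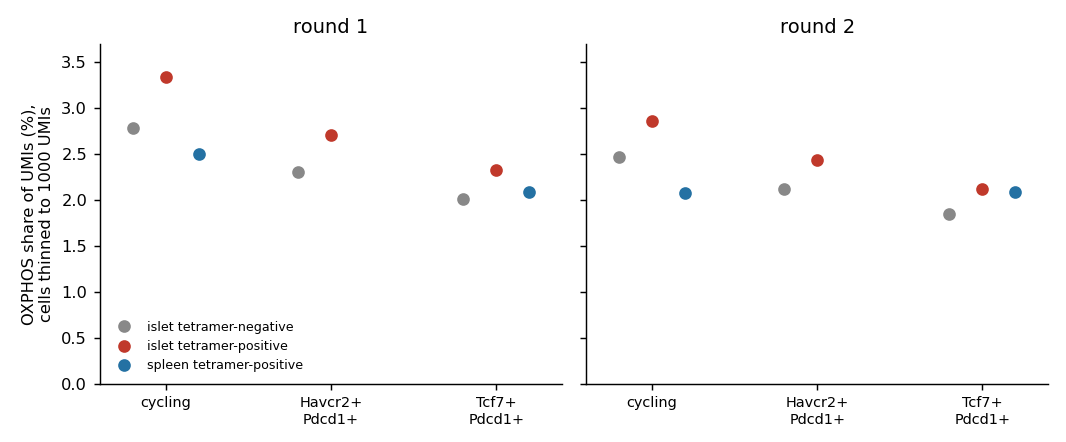
Share of UMIs (%) held by the 97 nuclear genes in subsets of cells set by marker UMIs, after thinning each cell to 1000 UMIs, 1 point per library and subset with at least 20 cells. In both rounds the islet tetramer-positive point is above the tetramer-negative point of every subset where both are drawn, and cycling cells are highest in the islet libraries (3.34% and 2.86% in tetramer-positive cells).

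Other genes of the mitochondrion gave the setting, with calls from the fit with the round as a block and with 0 calls between the islet groups without it. In that fit the background was 14.4% higher and 16.1% lower between the islet groups, and 27.1% higher and 28.0% lower in the spleen. Of 44 tested assembly factors under other names, of complexes I and III to V, and carriers, 12 (27.3%) were higher and 0 lower in islet tetramer-positive than tetramer-negative cells. In the spleen 13 (29.5%) were lower and 7 (15.9%) higher, shares near and below the background. Cycs, the cytochrome c that carries electrons to complex IV, had 296 and 312 CPM in tetramer-negative, 411 and 397 in islet tetramer-positive and 162 and 155 in spleen cells, without overlap. Its differences were 0.41 ± 0.12 between the islet groups and -1.44 ± 0.12 in the spleen (adjusted p = 0.0204 and 6.3e-07 with the block, 0.336 and 0.00693 without). Of 78 genes of the mitochondrial ribosome, which translates the mt- messages, 30 (38.5%) were higher and 0 lower between the islet groups, at a median of 0.26. Of 83 genes of the cytosolic ribosome 1 (1.20%) was higher and 11 (13.3%) lower, both below the background, at a median of -0.19.

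Of 13 enzymes of the tricarboxylic acid cycle, Idh3a, Mdh2 and Cs were higher and Suclg2 was lower in islet tetramer-positive than tetramer-negative cells (23.1% and 7.69%, against the same background of 14.4% and 16.1%), and 9 (69.2%) were lower and 1 (7.69%) higher in the spleen (28.0% and 27.1%). Idh3a, a catalytic subunit of isocitrate dehydrogenase, had 67.9 and 71.3 CPM in tetramer-negative, 116 and 122 in islet tetramer-positive and 76.5 and 80.6 in spleen cells (0.77 ± 0.11 between the islet groups, adjusted p = 0.000235 with the block, 0.0882 without). Of 21 tested regulators and factors of mitochondrial DNA expression, 2 (9.52%) were higher between the islet groups, Tfb1m and Slirp, and 4 (19.0%) lower, Myc, Polg, Polg2 and Pprc1, shares near the background. Polg, the catalytic subunit of the mitochondrial DNA polymerase, had 20.9 and 27.1, 14.5 and 15.8, and 22.2 and 30.8 CPM in tetramer-negative, islet tetramer-positive and spleen cells (-0.68 ± 0.14 between the islet groups, adjusted p = 0.00305 with the block, 0.160 without). Nrf1, Gabpa, Yy1 and Esrra, which encode or bind with the factors whose motifs are searched below, did not pass between the islet groups (adjusted p = 0.752, 0.703, 0.0996 and 0.797 with the block), and Ppargc1a had 0 to 0.312 CPM and was not tested.

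The promoters of the members were searched for 4 short motifs known from nuclear genes of the respiratory chain, since many members were called in the same direction with the block. RefSeq windows of GRCm38.p6, 250 bases before to 50 after a transcription start, were found by symbol for 79 of the 97 members, in 84 windows. The letters searched, on both strands, were GCGCATGCG for NRF1, CCGGAAGT for ETS factors such as GABPA, AAGATGGCG for YY1 and CAAGGTCA for the oestrogen-related receptor ERRA, and none of the 4 contains another. NRF1 letters were in 11.9% of the members' windows, in 1.75% of all windows and in 3.87% of the windows of genes tested. ETS letters were in 5.95%, 3.89% and 8.99%, YY1 letters in 9.52%, 1.40% and 3.32%, and ERRA letters in 4.76%, 1.56% and 1.06%. The members' windows were 58.0% G and C on average, against 53.8% for all windows and 60.6% for genes tested. The YY1 letters lay 11 to 36 bases after the start in 7 of 8 members.

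The sites below, 30 bases each and 5′ to 3′ on the gene's strand, are those of the members called higher in islet tetramer-positive cells with the block that changed most for each motif. Capitals mark the motif or, for a match on the other strand, its reverse complement.
Uqcr11, NRF1, chr10:80406807-80406836, minus strand: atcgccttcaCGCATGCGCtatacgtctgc
Atp5k, NRF1, chr5:108434430-108434459, minus strand: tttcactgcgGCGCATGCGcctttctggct
Ndufa11, NRF1, chr17:56717692-56717721, plus strand: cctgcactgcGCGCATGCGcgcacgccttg
Uqcr11, ETS, chr10:80406869-80406898, minus strand: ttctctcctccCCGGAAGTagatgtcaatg
Cox8a, ETS, chr19:7217604-7217633, minus strand: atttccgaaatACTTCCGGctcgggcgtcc
Ndufc1, YY1, chr3:51408914-51408943, minus strand: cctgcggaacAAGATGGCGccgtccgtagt
Atp5j, YY1, chr16:84835045-84835074, minus strand: aagtgtaggaAAGATGGCGgagtcttagct
Atp5j2, YY1, chr5:145191499-145191528, minus strand: ccaggacttcAAGATGGCGtcactcggtga
Ndufs5, ERRA, chr4:123718396-123718425, minus strand: tttctcgagtgTGACCTTGctcaagtagca
Atp5g3, ERRA, chr2:73911360-73911389, minus strand: ttgttacaaagTGACCTTGagcgtcttccc
Atp5l, ERRA, chr9:44920737-44920766, minus strand: gaggggcagccTGACCTTGgaaatggggaa

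Members with a match were not all called. Of the 10 with NRF1 letters, Uqcr11, Atp5k, Ndufa11, Ndufa8 and Atp5l rose between the islet groups and Ndufaf4, Cox6a1, Uqcrc1, Ndufaf5 and Atp5g2 did not pass. All 4 with ERRA letters (Ndufs5, Atp5g3, Atp5l and Sdhd) rose, and Ndufs3, Uqcrh and Atp5h, 3 of the 5 with ETS letters, did not pass. Of the 8 with YY1 letters, Ndufc1, Atp5j, Atp5j2, Ndufs4, Ndufs6 and Ndufs7 rose, and Ndufa9 and Ndufaf8 did not pass. Over all members tested 59.3% were called higher, against a background of 14.4%. Whether members with a motif differed from the other members was not tested. Only Uqcr11 and Atp5l held 2 of the motifs. A match describes letters in a window, and binding was not measured.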

How the data were processed

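The matrices deposited by the authors give unnormalised counts of UMIs, made from 5′ libraries with Cell Ranger (5.0.1 per the file headers) on mm10, 1 library per group and round. Doublets and free RNA were not removed. UMI counts of kept cells were summed per library. Levels are UMIs per 1000000 kept UMIs of the library (CPM), not divided by length, since 1 molecule gives 1 UMI. The 6 libraries were fitted together by edgeR 4.0.16 (R 4.3.3; quasi-likelihood test, TMM scaling, filterByExpr, Benjamini-Hochberg adjustment over 11277 genes, adjusted p under 0.05). The main design had no term for the round. The rounds pair the libraries, being the same pools of mice in all groups. Libraries of a round deviated together from their group means (Pearson r over genes 0.675, 0.699 and 0.603 for the 3 pairs of groups), so the fit with the round as a block is given beside it. Within-round log2 differences used TMM-scaled CPM plus 1. The 6 libraries came from 2 pools of mice, each of which gave all 3 groups. Without the block, p-values rest on the spread between the libraries of a group, which came from different pools. With the block, they rest on how far the group differences varied between the 2 rounds.

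DESeq2 1.42.0, other scalings and filters, other cell selections, cells with a productive beta chain in the TCR data, and leaving out each library were tried as alternatives. Scripts were tested on simulated data. The members and gene lists were chosen with earlier results of these data known. Named were, per comparison and direction, the 5 largest called changes of the same sign in both rounds with at least 20 CPM in the higher group (from the blocked fit where the main fit called none), the most abundant member of each complex, Atp5g1 to Atp5g3 and Sdha to Sdhd. Many of these genes have processed pseudogenes, which can take or void reads, and their effect was not tested. Cell subsets other than those given are not reported here.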

Additional observations from a re-analysis of the deposited data

How the results depend on the processing

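Except where stated above, the share of all genes called in an alternative fit is not given, so these counts are not read against a background. Between the islet groups the count of members called higher was 0 in the main fit, 54 with the replicate block and 2 with DESeq2, and that of members called lower was 0 and, with the block, 2. In the spleen against islet tetramer-positive cells the count of higher members was 0 and, with the block, 4, and the count of lower members went from 12 to 53 with the block, 23 with DESeq2, 7 with only the 2 groups compared, 4 after thinning to 1000 UMIs and 6 without cycling cells. Leaving out 1 library at a time gave 0 to 0 for the 3 counts of 0 and 0 to 14 for the 12. With the block, thinning gave 35 and 1 members higher and lower between the islet groups and 32 lower in the spleen, and the count higher in the spleen was 1 with DESeq2 and 8 without cycling cells. Leaving out 1 library there gave 21 to 52 higher (21 without the tetramer-negative and 31 without the islet tetramer-positive library of round 1) and 0 to 2 lower between the islet groups, and 1 to 5 higher and 34 to 53 lower in the spleen (34 without the spleen library of round 1).

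The nuclear share differed between the islet groups by 0.474 to 0.874 points and between spleen and islet tetramer-positive cells by -0.865 to -0.465 points when 1 library was left out, and by -0.415 without cycling cells in the latter. For the mt- share these ranges were -1.26 to -0.243 and -0.129 to 0.783 points. The second changed sign without the spleen library of round 1 or the islet tetramer-positive library of round 2 because the rounds then no longer balanced. Single members that changed sign had changes near 0 or overlapped between rounds. In the spleen comparison Sdhc was 0.041 without cycling cells and 0.046 when the block was used with that. When 1 library was left out, the changes between the islet groups ranged from -0.151 to 0.777 for Atp5g2, -0.845 to 0.031 for Cox7a2l, -0.143 to 0.314 for Sdha and -0.036 to 0.238 for Uqcrh. Elsewhere the cause was not tested. With 2 pools a group, the precision is set by the number of pools and not by the UMIs counted.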
